A study of Homo sapiens with 72 samples.

Results

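The genes described here are the nuclear-encoded subunits of the mitochondrial respiratory chain and the ATP synthase, 89 of 23170 genes counted in omaveloxolone-treated skin fibroblasts. They were taken by symbol from the protein-coding genes: the NDUFA, NDUFB, NDUFC, NDUFS and NDUFV genes of complex I without the NDUFAF assembly factors (40), SDHA to SDHD of complex II (4), the UQCR genes and CYC1 of complex III (10), the COX4I, COX5, COX6, COX7 and COX8 genes of complex IV (15), the ATP5F1, ATP5M and ATP5P genes of complex V (19), and CYCS, which encodes cytochrome c. Passing the filter on low counts were 85 of them: all 40 of complex I, all 4 of complex II, all 10 of complex III, 12 of complex IV, 18 of complex V, and CYCS. COX4I2, COX6B2, COX8C and ATP5MF-PTCD1 were counted but too low to test, and COX6A2 and COX7B2 were not analysed here.

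The cells were wildtype normal human dermal fibroblasts, the connective tissue cells of skin, kept for 24 hours in a 384-well plate with omaveloxolone at 0.0005, 0.002, 0.005, 0.014, 0.04, 0.12, 0.37, 1.11, 3.33 or 10 µM (4 wells a dose) or with its solvent DMSO (32 wells). The compound, a triterpenoid, frees the transcription factor NRF2 from its repressor KEAP1. Transcripts were counted by DRUG-seq, which reads the 3′ ends of polyadenylated RNA from lysed wells, and the dose series asks how expression changes with the amount of compound. The titles call the wells of a group biological replicates but do not say whether these came from separate cultures or donors, so p-values measure the spread between wells, which may be technical. The treatment protocol speaks of 16 DMSO wells on each plate, while 32 wells carry the DMSO label, and all 32 were used as labelled. Wells with compound filled rows K and L of the plate, each dose in a fixed pair of columns, and DMSO wells filled columns 2 and 23, so dose and plate column cannot be told apart.

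The respiratory chain passes electrons from NADH through complex I, and from succinate through complex II, to ubiquinone, then through complex III and cytochrome c to oxygen at complex IV. Complexes I, III and IV pump protons, and complex V lets them flow back to make ATP. Complex II is built from nuclear genes alone, while the other complexes also hold subunits encoded in the mitochondrial genome. Fibroblasts in culture use this chain beside glycolysis.

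Wells up to 0.12 µM held a mean of 5571740 to 7758806 counts, those at 0.37 µM 9878162, those at 1.11 µM 1565630, those at 3.33 µM 169669 and those at 10 µM 30832, against 6657054 in DMSO. Fewer cells and less RNA per cell cannot be told apart in such lysates. A well held on average 134898 member counts at 0.37 µM, 15042 at 1.11 µM, 2168 at 3.33 µM and only 443 at 10 µM, against 92513 in DMSO, so values at the top doses rest on few counts. All 11 fibroblast markers were counted, with a summed level of 34299 to 38715 CPM (counts scaled to a common library size, with TMM factors) in the wells at 0.37 µM and 71238 to 84265 CPM at 1.11 µM, against 69203 to 84665 CPM in DMSO. Markers of endothelial cells (4 of 5 counted), melanocytes (3 of 5) and muscle (4 of 5) summed to at most 5.36, 3.02 and 2.61 CPM in any DMSO well. The 3 of 4 immune markers counted summed to 205 to 410 CPM at 1.11 µM, against 92.7 to 184 CPM in DMSO, and the 2 of 5 keratinocyte markers counted to 299 to 353 CPM, against 343 to 586 CPM. Their part in the results was not tested.

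Promoters of 3 genes are shown because their genes carry the main results: CYCS had the largest rise at 0.37 µM, UQCR11 had a large fall at 1.11 µM, and ATP5MC2 fell at both doses. They are the 250 bases before the gene's start, 5′ to 3′ on the gene's strand, from RefSeq on GRCh38.p14, with motif matches in capitals. RefSeq's starts of CYCS and UQCR11 lie inside the GENCODE bounds given below. For ATP5MC2 the whole printed window lies inside the GENCODE bounds of the gene, 53632726 to 53677408. CYCS (chr7:25125261-25125510, minus strand) and ATP5MC2 (chr12:53676084-53676333, minus strand) hold the core of the NRF1 site, GCGCATGC, as its reverse complement, starting 169 and 40 bases before the start. UQCR11 (chr19:1605463-1605712, minus strand) holds the ETS core CCGGAAG, the core bound by the GABP factor, once in each orientation, starting 117 and 97 bases before the start.
CYCS: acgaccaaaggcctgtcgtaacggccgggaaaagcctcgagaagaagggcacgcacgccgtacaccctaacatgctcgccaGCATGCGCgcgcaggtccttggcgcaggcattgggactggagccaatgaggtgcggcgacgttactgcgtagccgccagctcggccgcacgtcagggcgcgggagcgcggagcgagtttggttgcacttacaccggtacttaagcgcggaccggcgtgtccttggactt
ATP5MC2: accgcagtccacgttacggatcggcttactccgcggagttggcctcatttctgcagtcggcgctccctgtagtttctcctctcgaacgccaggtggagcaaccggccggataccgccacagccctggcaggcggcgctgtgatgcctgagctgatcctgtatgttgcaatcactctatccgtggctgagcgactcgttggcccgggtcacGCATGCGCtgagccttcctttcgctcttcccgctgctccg
UQCR11: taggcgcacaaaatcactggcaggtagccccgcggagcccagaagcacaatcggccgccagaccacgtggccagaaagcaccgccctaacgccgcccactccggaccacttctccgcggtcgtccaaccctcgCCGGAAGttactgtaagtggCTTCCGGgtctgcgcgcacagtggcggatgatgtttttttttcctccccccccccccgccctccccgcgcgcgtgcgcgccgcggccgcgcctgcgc

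Promoters of 69 of the 89 members were matched in RefSeq, each a window of 300 bases from 250 before to 50 after the start, and each motif was searched on both strands. The NRF1 core was in 14 of them (20.3%), against 3.27% of all 27305 promoters in the table. The ETS core was in 20 (29.0%), against 10.7% of all, and the YY1 core AAGATGGC in 11 (15.9%), against 3.03%. The core of the antioxidant response element that NRF2 binds, TGACNNNGC, was in 10 (14.5%), against 13.6% of all promoters. These matches describe letters in a window and say nothing of binding.

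The members as a whole changed little up to 0.12 µM, shifted in both directions at 0.37 µM and fell in most complexes at 1.11 µM. Their share of all gene counts was 1.40 ± 0.0647% in DMSO (mean ± SD, n = 32), 1.47 ± 0.0351% with 0.12 µM, 1.37 ± 0.0577% with 0.37 µM and 0.960 ± 0.0211% with 1.11 µM, then 1.28 ± 0.0227% at 3.33 µM and 1.45 ± 0.115% at 10 µM (n = 4 each). All 4 wells at 1.11 µM, between 0.931 and 0.980%, lay below the lowest DMSO well at 1.28%. Called below means past an adjusted p of 0.05 in edgeR's quasi-likelihood test over 14264 genes. The test over all doses together called 67 of 85 members, against 56.4% of all genes, and 9 members were called at no dose.

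**Figure D1:**
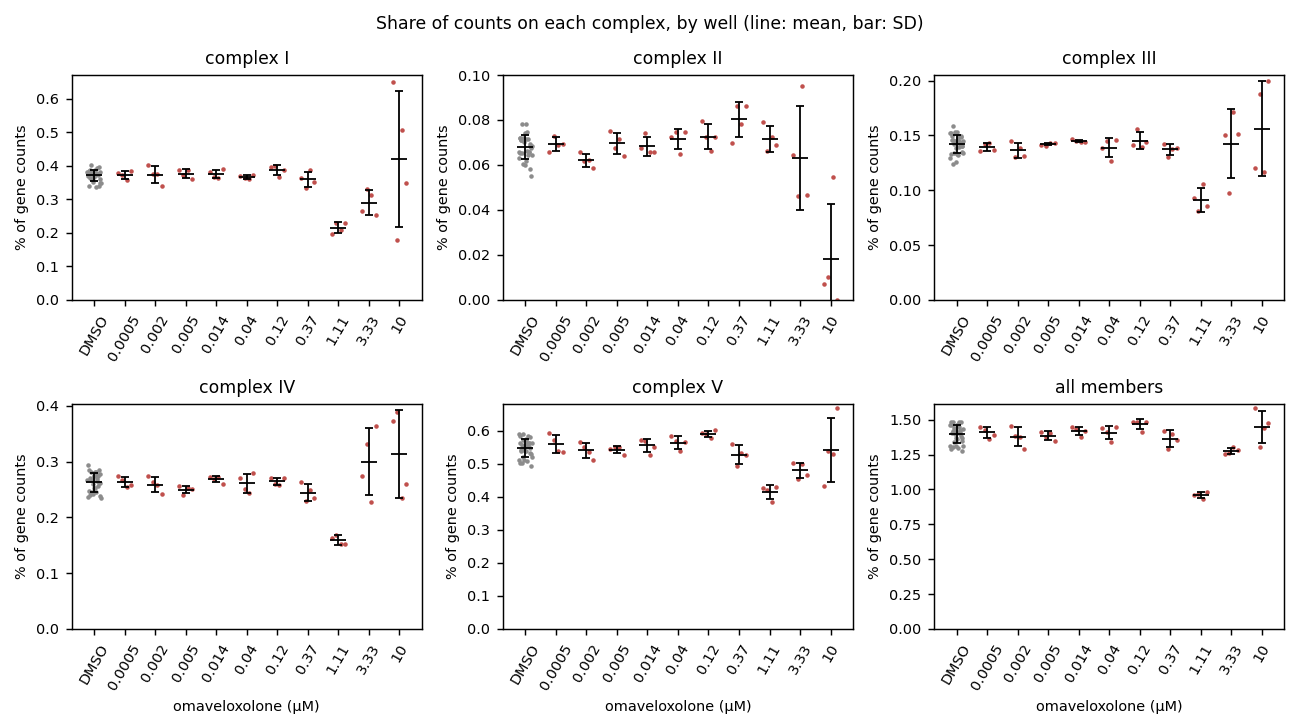
Percent of all gene counts on each complex in every well (vertical axis) by dose of omaveloxolone in µM, with DMSO at the low end (horizontal axis). Points are wells, lines are means and bars are SD. At 1.11 µM complexes I, III, IV and V lay at 0.216, 0.0914, 0.159 and 0.415% of counts, against 0.372, 0.142, 0.263 and 0.547% in DMSO, while complex II lay at 0.0716%, against 0.0680% in DMSO.

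Below 0.37 µM only COX7B, a small accessory subunit of complex IV, was called. No member was called at 0.0005 µM (background over all genes 0.00701%) or 0.002 µM (0.0561%), and COX7B alone was called, as lower, at 0.005 µM (0.0771%), 0.014 µM (0.217%), 0.04 µM (0.792%) and 0.12 µM (1.02% of all genes lower). No member was called higher at 0.12 µM, where 1.31% of all genes were. At an unadjusted p under 0.05, 3 members were lower and 0 higher at each of 0.0005 and 0.002 µM, and 9 were higher at 0.12 µM, where DESeq2's Wald test called 5 higher. At that dose 67 of 85 members lay above DMSO on average without passing the test, with a median log2 change of 0.16, against -0.07 over all genes tested. The 2988 genes with a mean of at least 50 CPM had a median of 0.05.

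The level of COX7B differed between plate columns in DMSO wells and in treated wells, in opposite directions. It held 22.5, 27.2, 27.3 and 19.7 CPM in the wells at 0.12 µM, against 51.8 to 184 CPM in DMSO (median 133). Every well at that dose lay below every DMSO well. The log2 change was -2.38 ± 0.44 (SE; edgeR adjusted p = 0.000117), and it was already -1.50 at 0.0005 µM, where it was not called (adjusted p = 0.537), and stood at -2.44 at 0.37 µM.

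In DMSO, COX7B ran from 51.8 to 138 CPM in column 23 and from 132 to 184 CPM in column 2. Between DMSO columns 19 members were called, all lower in column 23, of 82 tested, against 6.14% of all genes, with a median log2 difference of -0.13. Over the treated wells of 0.0005 to 0.37 µM, 4 of 86 members differed between columns 13 to 24 and columns 1 to 12 with dose held fixed, against 0.972% of all genes. COX7B was higher in the higher-numbered columns by 1.42 ± 0.23 on the log2 scale (edgeR adjusted p = 0.000476), as was ATP5MJ, a small membrane subunit of complex V, by 1.39 ± 0.15 (adjusted p = 2.46e-07). ATP5MK (0.41) and NDUFB10 (-0.29) were the others. By median, COX7B, ATP5MJ and ATP5MK went the other way in DMSO, while NDUFB10 was lower in the higher-numbered columns in both. COX7B had medians of 34.3 CPM in the higher-numbered and 15.7 CPM in the lower-numbered columns of these treated wells. In DMSO they were 81.7 CPM in column 23 and 166 CPM in column 2. ATP5MJ and UQCRB, a subunit of complex III, resembled COX7B in being lower at every dose up to 0.37 µM, by 0.71 to 1.03 and by 0.54 to 1.26 on the log2 scale, and had no call below 0.37 µM, the one dose at which UQCRB was called. Against the 4 DMSO wells in rows K and L alone, and under the replicate block, COX7B was not called at 0.005 to 0.12 µM, but its log2 changes were about as large, at -2.36 and -2.51 for 0.12 µM. The call at 0.005 µM was also lost without replicate 1 (-2.09), and that at 0.014 µM with size factors (-1.71) and without replicates 1, 2 or 4 in turn (-1.70, -1.43 and -1.43). The part of plate position in these results was not tested beyond these values.

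**Figure D2:**
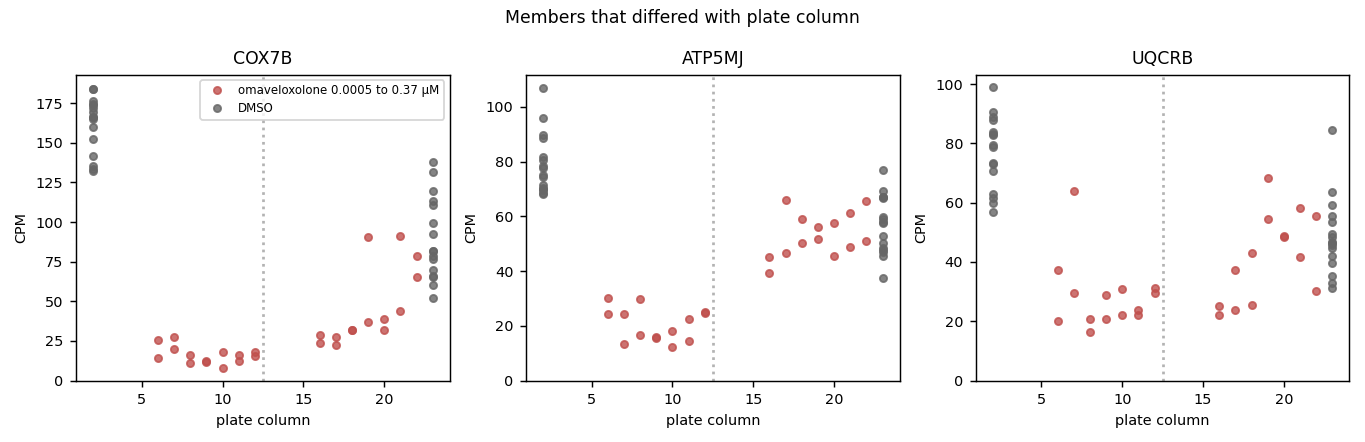
Level in CPM (vertical axis) of COX7B, ATP5MJ and UQCRB by plate column (horizontal axis) in wells of 0.0005 to 0.37 µM omaveloxolone and in DMSO wells. The dotted line divides columns 1 to 12 from columns 13 to 24. ATP5MJ lay between 39.3 and 65.8 CPM in the treated wells right of the line and between 12.2 and 30.3 CPM in those left of it.

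At 0.37 µM 8 members were higher (11.2% of all genes were) and 15 lower (13.6% of all genes), with CYCS far ahead of the rest. The counts of 8 and 15 in 85 lie close to these shares of all genes. Of the 2988 genes with a mean of at least 50 CPM, 646 were higher and 773 lower. Both shares are larger than among the members, of which 70 reached that level in DMSO. Without replicate 4, 4 members were higher. Of 40 members of complex I, 3 were higher and 6 lower. Of 4 of complex II, 0 were higher and 1 lower. Of 10 of complex III, 1 was higher and 1 lower, of 12 of complex IV, 1 and 2, and of 18 of complex V, 2 and 5. Of these 23 members, 13 had all 4 wells outside the range of the 32 DMSO wells.

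The split at 0.37 µM depends on the scaling. When DESeq2's size factors replaced TMM, the all-gene median moved by 0.25 on the log2 scale, and 22 members were higher and 5 lower. The members' median was -0.05 with TMM and 0.21 with size factors, in both cases above that of all genes, at -0.14 and 0.11. All 8 higher members and 5 of the 15 lower ones kept their call.

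CYCS (ENSG00000172115; chromosome 7, 25120091 to 25125361, minus strand, GRCh38) encodes cytochrome c, the carrier between complexes III and IV that also triggers the apoptosome when released from mitochondria. It held 167, 175, 169 and 131 CPM in the 4 wells at 0.37 µM, against 25.5 to 82.7 CPM (median 45.9) in DMSO wells. The groups did not overlap. The log2 change was 1.75 ± 0.24 (edgeR adjusted p = 6.57e-09), and this rise and the fall of COX7B were the calls at 0.37 µM that held under every alternative tried. At 0.12 µM the log2 change of CYCS was 0.66 and was not called. At 1.11 µM its wells ran from 15.5 to 168 CPM, a spread wider than the DMSO range.

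The other higher members were modest in size. ATP5MC1, one of the genes for subunit c of the ATP synthase ring, held 205, 137, 196 and 168 CPM at 0.37 µM, against 72.6 to 138 CPM (median 101) in DMSO. COX7A2L, which helps join complexes III and IV into supercomplexes, held 497, 497, 441 and 445 CPM, against 235 to 397 CPM (median 302). All wells of COX7A2L and 3 of 4 of ATP5MC1 lay above every DMSO well.

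ATP5MC1 rose by 0.76 ± 0.20 on the log2 scale (edgeR adjusted p = 0.00225) and COX7A2L by 0.64 ± 0.17 (adjusted p = 0.00223). UQCRFS1, the Rieske iron-sulfur protein of complex III, rose by 0.53, and the complex I accessory subunits NDUFV3, NDUFB9 and NDUFAB1 (the mitochondrial acyl carrier protein) by 0.59, 0.50 and 0.47. ATP5MK, a small membrane subunit of complex V, rose by 0.55. None of these 7 calls held against the 4 DMSO wells in rows K and L or under the replicate block, while CYCS held in both. The log2 changes stayed close in size, for example 0.58 and 0.67 for COX7A2L, 0.62 and 0.86 for ATP5MC1 and 0.49 and 0.57 for UQCRFS1.

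The lower members at 0.37 µM included a stalk subunit and a head subunit of the ATP synthase, but not the subunit that holds the catalytic sites. ATP5F1D, the delta subunit of the central stalk, held 117, 80.5, 127 and 114 CPM at 0.37 µM, against 181 to 278 CPM (median 232) in DMSO, and ATP5F1A, the alpha subunit of the catalytic head, held 288, 227, 267 and 292 CPM, against 317 to 473 CPM (median 413). Neither overlapped with DMSO. Their log2 changes were -1.06 ± 0.19 (edgeR adjusted p = 7.76e-06) and -0.63 ± 0.17 (adjusted p = 0.00332). ATP5F1A lost its call with size factors (adjusted p = 0.0697). ATP5F1B, the beta subunit that holds the catalytic sites, had a log2 change of 0.36 and was not called (adjusted p = 0.058).

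The genes for subunit c had log2 changes of opposite sign. ATP5MC1, ATP5MC2 and ATP5MC3 encode the same mature protein with different import sequences. ATP5MC2 held 203, 172, 173 and 164 CPM at 0.37 µM, against 237 to 355 CPM (median 304) in DMSO, with no overlap. Its log2 change was -0.76 ± 0.15 (edgeR adjusted p = 3.33e-05), while that of ATP5MC1 was 0.76 and that of ATP5MC3 0.24 without a call. The difference between these genes was not tested.

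In complex I the largest falls at 0.37 µM were in NDUFS4 (log2 change -0.93), an accessory subunit known from Leigh syndrome, NDUFA12 (-0.74) and NDUFS7 (-0.70), a core subunit with an iron-sulfur cluster. In complex II SDHA, the flavoprotein that oxidises succinate, fell by 0.93 to 15.8 ± 7.77 CPM, against 30.0 ± 4.99 CPM in DMSO (n = 4 and 32; edgeR adjusted p = 0.019), a call lost with size factors (-0.70, adjusted p = 0.0806) and kept by DESeq2's Wald test (adjusted p = 0.00608). SDHB, SDHC and SDHD, the iron-sulfur and membrane subunits, had log2 changes of 0.34, 0.37 and 0.07 and were not called in edgeR. DESeq2's Wald test called SDHB (0.59, adjusted p = 3.4e-05) and SDHC (0.63, adjusted p = 1.94e-11) higher. In complex IV COX4I1, the widely expressed form of the regulatory subunit 4, fell by 0.41 with all 4 wells below the DMSO range, and UQCRB of complex III fell by 1.26. With size factors NDUFA12 (-0.50), NDUFS7 (-0.45) and COX4I1 (-0.16) were not called, at adjusted p of 0.128, 0.151 and 0.362.

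**Figure D3:**
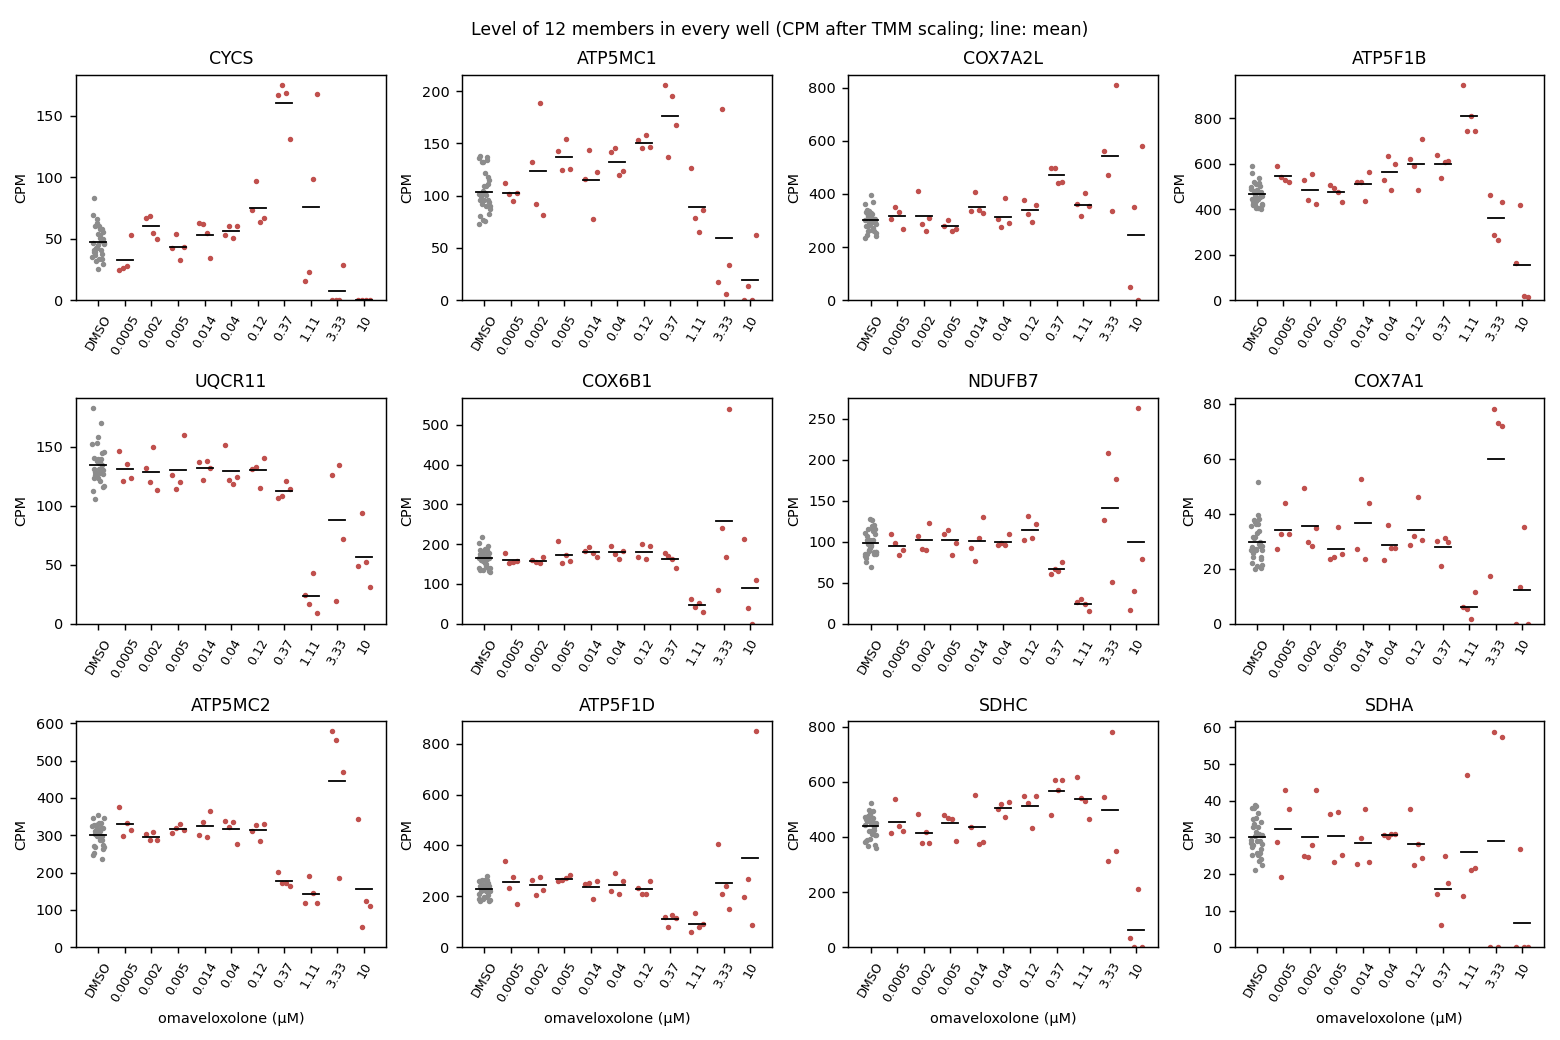
Level in CPM (vertical axes, from 0) of 12 members in every well by dose of omaveloxolone in µM with DMSO at the low end (horizontal axes). Points are wells and lines are means. CYCS peaked at 0.37 µM at 160 CPM, ATP5F1B at 1.11 µM at 810 CPM, and UQCR11, COX6B1, NDUFB7 and COX7A1 had low wells at 1.11 µM, at means of 23.5, 46.0, 24.0 and 6.15 CPM.

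Against 0.12 µM, 0 members were higher at 0.37 µM in edgeR (2.52% of all genes were; 2 members at an unadjusted p under 0.05) and 6 were lower (5.6% of all genes). CYCS had a log2 difference of 1.10 between these doses with an edgeR adjusted p of 0.0509.

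At 1.11 µM the fall was broad. Lower were 45 of 85 members, or 52.9%, against 13.2% of all genes, and 1 was higher, against 9.76% of all genes. Of the 2988 genes with a mean of at least 50 CPM, 611 were lower and 517 higher. On average 68 of the 85 members lay below DMSO. The median log2 change was -0.70, or -0.64 with the 2 members at 0 counts (NDUFC2-KCTD14 and ATP5MGL) set at their bound, against -0.20 over all genes tested and -0.06 over genes with a mean of at least 50 CPM, a level that 70 of the 85 members reached in DMSO. Against 0.37 µM, 39 members were lower and 1 was higher at 1.11 µM, where 13.4% and 12.1% of all genes were.

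By complex, complex IV had 8 of 12 members lower and a median log2 change of -1.07, complex I 23 of 40 and -0.78, complex III 5 of 10 and -0.74, and complex V 9 of 18 and -0.48. Complex II had 0 of 4 lower and a median of 0.23. Over the alternatives these medians ran from -1.16 to -0.91 for complex IV, -0.86 to -0.71 for complex I, -0.88 to -0.67 for complex III, -0.58 to -0.42 for complex V and 0.09 to 0.29 for complex II. With NDUFA4, named for complex I but known as a subunit of complex IV, moved to complex IV, the counts of lower members were 9 of 13 for complex IV and 22 of 39 for complex I. The differences between complexes were not tested.

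**Figure D4:**
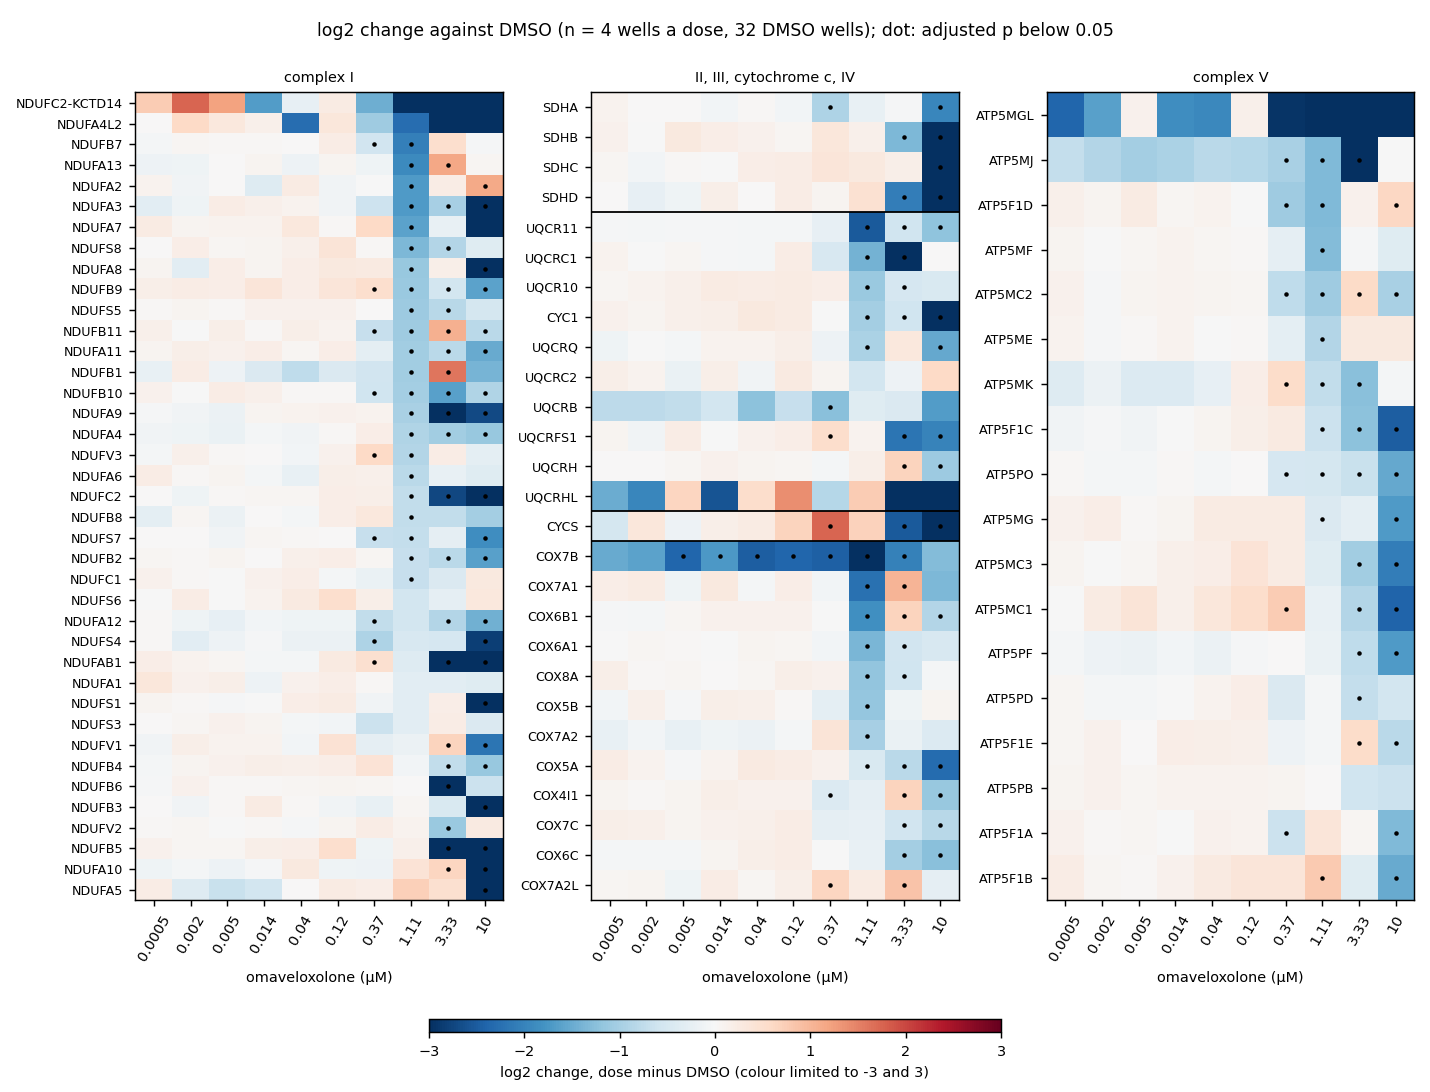
Log2 change from DMSO (colour, limited to -3 and 3) of 84 of the 85 members tested (rows, by complex and by their value at 1.11 µM) at 10 doses in µM (columns), where a dot marks an adjusted p below 0.05 in edgeR. The column of 1.11 µM holds 44 calls below DMSO, and fitted values of members with 0 counts at 1.11, 3.33 or 10 µM are no bounds.

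Of the 45 lower members, 27 had all 4 wells below every DMSO well, and 19 kept their call under every alternative tried. Against the 4 DMSO wells in rows K and L 22 members were called lower, and under the replicate block 19, each with 4 DMSO wells in place of 32.

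In complex III the largest fall was in UQCR11 (ENSG00000127540; chromosome 19, 1597172 to 1605490, minus strand), its smallest accessory subunit, whose promoter is shown above. It held 24.7, 17.1, 42.8 and 9.51 CPM at 1.11 µM, against 105 to 183 CPM (median 131) in DMSO. The groups lay far apart. The log2 change was -2.53 ± 0.22 (edgeR adjusted p = 3.12e-16). UQCRC1, a core protein, fell by 1.42 and UQCR10 by 1.11, as did CYC1, the cytochrome c1 heme protein, by 1.02. UQCRC2, the other core protein, and UQCRFS1 were not called, at -0.54 and 0.10.

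In complex IV most small nuclear subunits fell. COX6B1, which faces the intermembrane space where cytochrome c docks, held 61.8, 41.7, 51.2 and 29.2 CPM at 1.11 µM, against 131 to 218 CPM (median 165) in DMSO. COX7A1, the form of subunit 7A known from heart and muscle, held 6.18, 5.22, 1.68 and 11.5 CPM, against 19.8 to 51.7 CPM (median 28.2). Neither overlapped with DMSO. Their log2 changes were -1.84 ± 0.22 (edgeR adjusted p = 2.77e-10) and -2.25 ± 0.33 (adjusted p = 1.15e-07).

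The widely expressed forms COX6A1, COX8A and COX7A2 fell too, by 1.38, 1.18 and 0.99, as did COX5B by 1.15 and COX5A by 0.46, subunits of the matrix side. COX7B fell by 5.18 to 3.59 ± 3.34 CPM, against 126 ± 42.6 CPM in DMSO (n = 4 and 32; edgeR adjusted p = 2.21e-10), beside its shift with plate column. COX4I1 (-0.27) and COX7A2L (0.25) were not called at 1.11 µM, and neither were the small subunits COX6C and COX7C. COX4I2, the form induced by low oxygen in lung, had 0 counts in every DMSO well, and COX8C and COX6B2 stood at 0.0231 and 0.268 CPM there, so these forms stood near or at 0.

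In complex I falls were found among accessory and core subunits. Of 33 accessory members 20 were lower at 1.11 µM, with a median log2 change of -0.88, and of the 7 core members that carry the flavin and the iron-sulfur clusters or form their frame, 3 were lower, with a median of -0.32. This split was made after the values were seen and was not tested. NDUFB7, at the membrane arm, held 26.3, 30.6, 24.3 and 14.9 CPM at 1.11 µM, against 68.7 to 127 CPM (median 96.5) in DMSO.

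No NDUFB7 well at 1.11 µM reached the DMSO range. The log2 change was -2.04 ± 0.23 (edgeR adjusted p = 5.63e-11). NDUFA13, also known as GRIM-19, fell by 1.92 and NDUFA2, of the matrix arm, by 1.69. Among core members NDUFS8 fell by 1.35 and NDUFS7 by 0.72, while NDUFS1 (-0.32) and NDUFV1 (-0.17), which hold the flavin site and the cluster chain next to it, were not called. NDUFA4 fell by 0.90. Its paralog NDUFA4L2, induced by low oxygen in other cells, had a mean of 1.94 CPM in DMSO wells and no call at any dose.

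In complex V the direction differed by subunit. ATP5F1B (ENSG00000110955; chromosome 12, 56638175 to 56646068, minus strand) was the member that was higher at 1.11 µM. It held 945, 743, 809 and 743 CPM, against 401 to 591 CPM (median 460) in DMSO, so every well lay above the DMSO range. The log2 change was 0.80 ± 0.14 (edgeR adjusted p = 9.23e-06), a call lost at a similar size against the 4 DMSO wells in rows K and L (0.74, adjusted p = 0.118) and under the replicate block (0.65, adjusted p = 0.225). ATP5F1D fell by 1.32, ATP5MF, a membrane subunit, by 1.29 and ATP5MC2 by 1.07, while ATP5F1A (0.36), ATP5MC1 (-0.22) and ATP5MC3 (-0.36) were not called.

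The members of complex II lay near or above DMSO at 1.11 µM. SDHC, the large cytochrome b subunit, held 616, 542, 531 and 464 CPM, against 361 to 523 CPM (median 446) in DMSO. SDHB held 138, 107, 204 and 69.9 CPM, against 79.7 to 159 CPM (median 116). For SDHC 3 of 4 wells at 1.11 µM lay above the DMSO range, and for SDHB 1 well lay above and 1 below it. The log2 changes of SDHA, SDHB, SDHC and SDHD were -0.21, 0.15, 0.30 and 0.45. In edgeR 0 of 4 were called, and 0 had an unadjusted p under 0.05, while DESeq2's Wald test called SDHC higher, at 0.36 with an adjusted p of 0.000837.

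Members with a GC-rich transcript fell more at 1.11 µM. Across the 85 members the log2 change and the GC content of the longest protein-coding transcript (GENCODE release 29) had a Spearman correlation of -0.55 (Pearson -0.36), against 0.02 across 13448 protein-coding genes tested. Genes are not independent replicates, and all points share the same wells. The 42 members above the median GC of 47.6% had a median log2 change of -1.06 and the other 43 one of -0.32. Transcript length, which also varies with GC, had a Spearman correlation of 0.44 among members and -0.01 across all genes. The 11 members on chromosome 19, with a median GC of 61.0%, had a median log2 change of -1.69, against -0.54 for the other 74, and over all protein-coding genes tested the medians were -0.39 for chromosome 19 and -0.16 elsewhere. At 0.37 µM the Spearman correlation of GC and log2 change among members was -0.28, and at 3.33 µM it was 0.24.

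**Figure D5:**
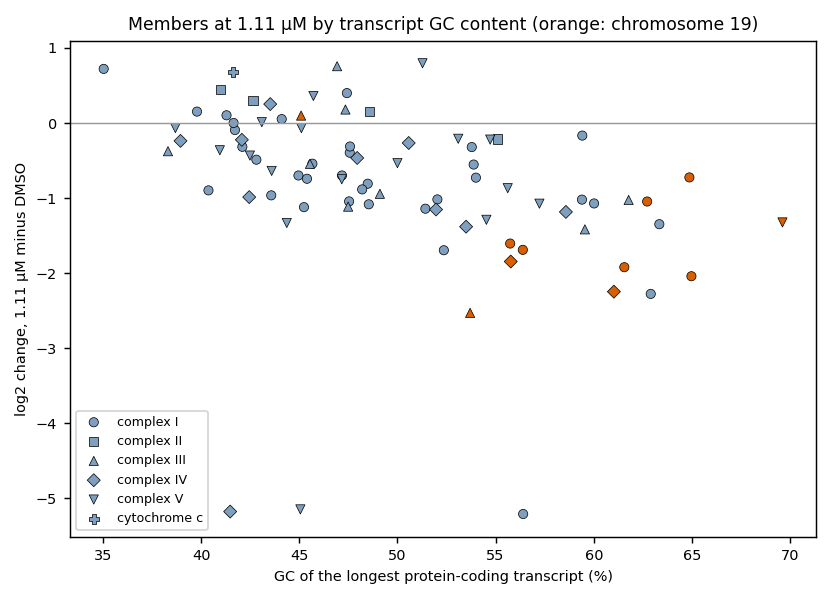
Log2 change from DMSO at 1.11 µM (vertical axis) of the 85 members by GC content in percent of the longest protein-coding transcript (horizontal axis). Markers show the complex, and members on chromosome 19 are orange. Members at higher GC lay lower, with a Spearman correlation of -0.55.

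At 3.33 and 10 µM counts were low. In the 4 wells together, 4 of 85 members had 0 counts and 3 had 1 to 3 at 3.33 µM. At 10 µM 10 members had 0 counts and 12 had 1 to 3. At 3.33 µM 12 members were higher (7.35% of all genes) and 38 lower (32.9%), and against 1.11 µM 22 were higher (7.12% of all genes) and 15 lower (27.6%). Of the 2988 genes with a mean of at least 50 CPM, 336 were higher and 1500 lower than DMSO at 3.33 µM. Median log2 changes from DMSO there were -0.56 over the members, -0.70 over those genes and -2.32 over all genes tested. Of the 45 members lower at 1.11 µM, 22 were lower and 6 were higher at 3.33 µM. NDUFB11, an accessory subunit of complex I, held 63.0, 561, 202 and 287 CPM at 3.33 µM, against 104 to 161 CPM (median 132) in DMSO. Its log2 change of 1.06 (edgeR adjusted p = 7.62e-06) was the rise at this dose that held under every alternative.

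COX7A1, lower at 1.11 µM, was higher at 3.33 µM by 1.01, with wells at 17.2, 78.2, 73.0 and 71.8 CPM. NDUFB1 (log2 change 1.60) and NDUFA13 (1.16) rested on 1 well each, and without replicate 1 their log2 changes were -0.44 and -0.86. COX6B1 (0.67) rested largely on replicate 4, at 541 CPM, and stood at -0.0015 without it. COX4I1 and COX7A2L were higher by 0.67 and 0.86, ATP5MC2 by 0.56, ATP5F1E, the epsilon subunit of the stalk, by 0.55, and UQCRH, the hinge protein of complex III, by 0.66.

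The falls at 3.33 µM were deeper than the rises. The complex I subunits NDUFB5 and NDUFA9 had 2 and 1 counts in the 4 wells together, or 0.0263 times (exact 95% counting interval 0.00319 to 0.095) and 0.0542 times (0.00137 to 0.302) their DMSO level, and UQCRC1 had 3 counts, 0.0497 times (0.0102 to 0.145). NDUFB6, of the membrane arm of complex I, fell by 4.34 on the log2 scale, UQCRFS1 by 2.20, SDHD by 2.08, SDHB by 1.35 and CYCS by 2.53, with the counts of SDHD and of CYCS all in 1 well each. COX6C and COX5A of complex IV fell by 1.01 and 0.81, and ATP5MJ, ATP5MK and ATP5F1C, the gamma subunit of the stalk, by 3.01, 1.25 and 1.22.

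At 10 µM 2 members were higher (3.36% of all genes) and 47 lower (31.8%). Of the 2988 genes with a mean of at least 50 CPM, 127 were higher and 2030 lower. That share of lower genes is larger than among the 85 members. The median log2 change was -1.33 over the members, -1.78 over those genes and -5.51 over all genes tested. With size factors 10 members were higher and 19 lower, and the members' median became -0.44, so the direction of the middle-sized changes rests on the scaling. All 4 members of complex II were lower, though the call of SDHA (adjusted p = 0.042) was lost with size factors (-1.09, adjusted p = 0.429), without replicates 1, 3 or 4 in turn and under other alternatives. SDHC held 14 counts in the 4 wells together and fell by 2.98, while SDHB, SDHD and SDHA had 2 counts each, or 0.0669 times (exact 95% counting interval 0.0081 to 0.242), 0.069 times (0.00836 to 0.249) and 0.26 times (0.0315 to 0.939) their DMSO level. Complex II took 0.0180 ± 0.0248% of counts at this dose, against 0.0680 ± 0.00542% in DMSO.

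CYC1, NDUFA8, NDUFA5 and CYCS had 0 counts in all 4 wells at 10 µM and were at least 9.58, 5.19, 2.59 and 4.06 times lower than in DMSO, from a floor of 3 counts over the group. Intervals and floors cover counting error only. COX5A fell by 2.32, ATP5F1C by 2.48, ATP5MC1 by 2.41, ATP5MC3 by 2.07, UQCRFS1 by 2.01, UQCRQ by 1.53, COX6C by 1.24 and COX4I1 by 1.14. With size factors ATP5MC1 (-1.52), UQCRQ (-0.63), COX6C (-0.36) and COX4I1 (-0.29) were not called, at adjusted p of 0.0546, 0.157, 0.499 and 0.368. NDUFA2 (1.14) and ATP5F1D (0.63) were the higher members, and without replicate 4 the value of ATP5F1D was -0.16. Without replicates 1 and 2 in turn 4 members were higher, and without replicates 3 and 4 in turn 1 was. With the 10 members at 0 counts set at their bound the members' median was -1.23.

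Other genes of the chain were counted in the same fit, beside 11.2% of all genes higher and 13.6% lower at 0.37 µM. Of 13 mitochondrially encoded subunits, 11 were lower and 0 higher, with a median log2 change of -3.25. MT-CO3 of complex IV stood at 49.0 ± 12.9 CPM at 0.37 µM, against 5159 ± 1003 CPM in DMSO (n = 4 and 32). Of 48 assembly factors tested, 8 were higher and 2 lower at 0.37 µM, with a median of 0.14, against -0.14 over all genes. Those with the largest rises were COA6 (2.06) and COX19 (1.90), copper-handling factors of complex IV, and FMC1 (1.62), of complex V. SDHAF3 (-1.44) and SURF1 (-0.85), assembly factors of complexes II and IV, were lower. Of 12 regulators of mitochondrial biogenesis 1 was higher, GABPB1 (1.35), a subunit of the GABP factor. In a list of 10 carriers, enzymes that feed electrons to the chain and an ATP synthase inhibitor, 1 was higher, the ADP/ATP carrier SLC25A5 (0.82). At 1.11 µM 4 of the 48 assembly factors were higher and 9 lower, close to the 9.76% and 13.2% of all genes. Differences between the lists were not tested.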

How the data were processed

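The authors deposited raw counts per gene and well. Per the submitters' processing notes kallisto, bustools and the build GRCh38 were used, with versions not given in the sources used here, and collapsing of molecular identifiers is not stated, so a count may be a read. Members and lists were chosen with earlier results of these data known. One processed pseudogene row, at 2.96% of counts in DMSO and 57.2% at 10 µM, was left out of totals and tests. Names and positions come from GENCODE release 29.

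All 72 wells entered 1 fit of the counts with edgeR 4.0.16 in R 4.3.3 (TMM scaling, a filter with a minimum count of 10 by filterByExpr, robust quasi-likelihood test, Benjamini-Hochberg adjustment over all genes tested), and the fit was tested on simulated data. SE is the size of the log2 change over the root of F. The alternatives used DESeq2 1.42.0 size factors and its Wald test, no filter, fewer wells, plate side as a covariate, and a block. The comparison of plate sides among treated wells and a fit with the left-out row kept were chosen after seeing the data. Replicate numbers were checked for pairing: deviations of wells with the same number correlated at -0.32 to 0.31 over 40 pairs of groups, with 6 above 0.1, so the numbers do not pair the wells. Named genes were paralog pairs, complex II, cytochromes and core subunits, plus in each other complex and dose from 0.12 µM up to 3 called rises and 3 called falls with a mean of at least 10 CPM. NDUFS8, NDUFB10, NDUFA11, ATP5PO and COX7C lie outside that rule and were named after their values were seen. So were NDUFC2-KCTD14 and ATP5MGL, named for their 0 counts. The values of 1 member are not reported here, though it is kept in all counts and medians. Depth ran from 25637 to 10386930 counts a well, and values at 3.33 and 10 µM are the least precise. Pseudogene rows named after members held counts equal to 0.0264% of the members' own. Reads can be shared between NDUFC2 and NDUFC2-KCTD14, ATP5MF and ATP5MF-PTCD1, UQCRH and UQCRHL, and ATP5MG and ATP5MGL. Figures were drawn in Python 3.11.15 with Matplotlib 3.10.9.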

Additional observations from a re-analysis of the deposited data

Results flagged for a closer look

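In 8 groups of 4 wells, 1 well stood apart from the other 3, by a rule that chance alone meets in about 1 of 20 groups. It was met by 3 of 60 shares of counts searched: complex V at 0.005 µM, with a lowest well at 0.526%, complex III at 0.014 µM, with a highest well at 0.147%, and all members at 0.12 µM, with a lowest well at 1.41%. It was met by 5 of 70 called changes searched. At 0.37 µM NDUFB10 had a highest well at 176 CPM and ATP5PO a lowest well at 161 CPM. At 1.11 µM NDUFA11, NDUFV3 and CYC1 had highest wells at 118, 114 and 70.3 CPM.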

How the results depend on the processing

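Members called are counted below as higher or lower than DMSO, and the cause of each shift was not tested. With DESeq2's size factors, 22 were higher and 5 lower at 0.37 µM, 3 were higher at 1.11 µM, and 10 were higher and 19 lower at 10 µM. DESeq2's Wald test called 5 higher at 0.12 µM, 30 higher at 0.37 µM and 5 higher at 1.11 µM, and at 10 µM it called 12 higher and 18 lower. With each dose fitted with DMSO alone, 10 calls were made over the 5 doses up to 0.04 µM, against 3, with 9 higher and 2 lower at 0.12 µM, 16 and 25 at 0.37 µM, and 3 higher at 1.11 µM. Without the wells at 3.33 and 10 µM, 6 were higher at 0.12 µM, 15 higher and 24 lower at 0.37 µM, and 5 higher at 1.11 µM. With no filter on low counts, 6 calls were made up to 0.04 µM.

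Using only the 4 DMSO wells in plate rows K and L, no call was left up to 0.12 µM (0 calls), 1 higher and 3 lower were called at 0.37 µM, 0 and 22 at 1.11 µM, 2 and 24 at 3.33 µM, and 0 higher at 10 µM. Whether the replicate numbers pair the wells is not known. Under the replicate block the counts were 0 up to 0.12 µM, 1 and 1 at 0.37 µM, 0 and 19 at 1.11 µM, 1 and 17 at 3.33 µM, and 0 higher at 10 µM.

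Leaving out each replicate in turn, 1 to 2 were lower at 0.12 µM, 4 to 10 higher and 11 to 16 lower at 0.37 µM, 1 to 4 higher and 39 to 43 lower at 1.11 µM, 9 to 13 and 31 to 36 at 3.33 µM, and 1 to 4 and 40 to 48 at 10 µM. The log2 changes at 3.33 µM ran from -0.86 (without replicate 1) to 1.56 for NDUFA13, from -0.44 (without replicate 1) to 2.00 for NDUFB1 and from -0.0015 (without replicate 4) to 0.96 for COX6B1, and that of ATP5F1D at 10 µM from -0.16 (without replicate 4) to 1.03. At 10 µM size factors turned NDUFB10 to 0.0013, NDUFB11 to 0.067, COX6B1 to 0.016, COX7C to 0.051 and ATP5F1E to 0.11, and the Wald test turned NDUFB11 to 0.058, COX6B1 to 0.011, COX7C to 0.052 and ATP5F1E to 0.078. Calls that held under every alternative numbered 1 higher and 1 lower at 0.37 µM, 19 lower at 1.11 µM, 1 higher and 17 lower at 3.33 µM and 18 lower at 10 µM. With 443 member counts a well at 10 µM, single counts decide many members.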
